A study of Mus musculus with 3 samples.

Results

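The hypoxia-inducible factors and the VEGF family were followed across adult cardiomyocytes (ACMs) cultured with vehicle, IL-6 or OSM. The set comprised 10 of the 56748 genes in the count table, chosen by gene symbol: the VEGF family ligands Vegfa, Vegfb, Vegfc and Pgf, the HIF alpha subunits Hif1a and Epas1, the prolyl hydroxylases Egln1 and Egln3, and the hypoxia-responsive genes Ndrg1 and Ankrd37. All 10 symbols were found once in the table. RNAseq had been performed on ACMs from hearts of WT mice of 8 to 10 weeks of age. The cells were kept in serum-free medium with 0.1% BSA and the contraction blocker 2,3-butanedione monoxime, and were exposed for 16 h to 10 ng/mL mouse oncostatin-M, 10 ng/mL human Interleukin-6 or vehicle. RNA samples were pooled before sequencing, and each condition is represented by 1 library, 3 in all. There is therefore no spread between replicates, no test was possible and no P-value is given. Intervals are 95% counting intervals, and they describe differences between libraries, not between conditions. They are exact, except those for the change of a ratio of 2 genes between libraries, which are normal approximations.

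HIF transcription factors consist of an oxygen-regulated alpha subunit, HIF1A or EPAS1 (HIF2A), paired with the constitutive subunit ARNT. In the presence of oxygen, prolyl hydroxylases of the EGLN family mark the alpha subunit for ubiquitination by the VHL complex, whereas in hypoxia the alpha subunit escapes degradation and the pair binds the core sequence ACGTG or GCGTG near target genes. Vegfa, Egln3, Ndrg1 and Ankrd37 are well-known HIF targets, and in the heart VEGFA secreted by cardiomyocytes acts on neighboring endothelial cells. HIF activity is set mostly at the level of protein, which was not measured here. OSM and IL-6 both signal through receptors that contain gp130 and activate JAK and STAT3.

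The libraries held between 24939980 and 30773001 counts, and a floor of 3 counts corresponded to between 0.0975 and 0.120 CPM, the count scaled to the library total. Cardiomyocyte markers summed to between 31284 and 36748 CPM, against between 42.7 and 47.8 CPM for 10 endothelial markers, between 5.57 and 6.63 CPM for 8 fibroblast markers and between 6.98 and 8.42 CPM for 8 macrophage and leukocyte markers, of which Ptprc, C1qa, C1qb and Cd3e had 0 counts in every library. Smooth muscle and pericyte markers summed to between 109 and 235 CPM. Most of this sum came from Abcc9, which cardiomyocytes also express, and it was lowest with OSM. Fold changes are log2 ratios of counts scaled by TMM factors, and a gene was called when its whole counting interval lay beyond 2-fold.

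Ndrg1 was the one member called between OSM and vehicle, and it rose 9.41-fold with OSM. Of the 10 members compared, 1 was called higher and 0 were called lower, whereas of all 15537 genes compared 3.74% were called higher and 5.43% lower, or 9.17% in either direction. Intervals that excluded no change at all were found for 7 members: Hif1a, Ndrg1 and Vegfb were higher with OSM, and Egln1, Egln3, Epas1 and Vegfa were lower. That weaker criterion was met by 66.4% of all genes compared, 33.4% higher and 33.1% lower, so the members' share was near the background. The members' median log2 fold change was -0.14, against 0.005 over all genes. With IL-6 against vehicle, 0 of 10 members were called in either direction, against a background of 1.77% higher and 1.74% lower, or 3.51% in all. Intervals excluded no change for 4 members, with Vegfb higher and Egln3, Hif1a and Pgf lower, against 19.6% of all genes higher and 19.1% lower, or 38.7% in all. In the OSM library relative to the IL-6 library, 2 members were called higher, Ndrg1 and Hif1a, and 0 lower, where 4.24% of all genes were called higher and 5.42% lower, or 9.66% in all. Intervals excluded no change for 4 members that were higher and 3 that were lower, against 33.2% of all genes higher and 33.2% lower. The comparisons share libraries, so they are not independent of each other.

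**Figure D1:**
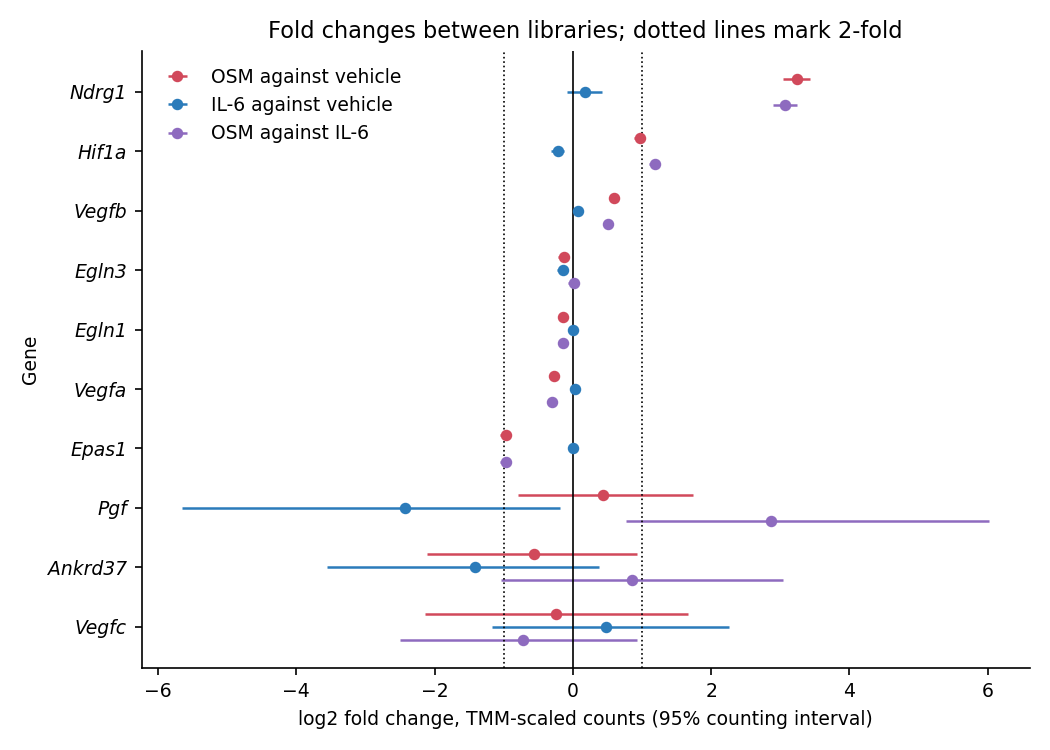
Log2 fold change of each member in the 3 comparisons, with bars for the 95% counting interval and dotted lines at 2-fold. Ndrg1 lies beyond 2-fold in both comparisons with OSM, and the intervals of Vegfc, Pgf and Ankrd37, which had at most 16 counts per library, are several log2 units wide.

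Among the HIF alpha subunits, Hif1a was higher and Epas1 lower with OSM, so that their order was exchanged. Hif1a (ENSMUSG00000021109, GRCm39 chromosome 12, 73948149 to 73994304, plus strand) encodes the widely expressed alpha subunit. It had 1871 counts with vehicle, 1725 with IL-6 and 4317 with OSM, corresponding to 12.5, 10.8 and 24.5 FPKM. The OSM library stood above the other two, at a log2 fold change of 0.96 (interval 0.89 to 1.04) against vehicle, or 1.95-fold, and 1.18 (1.10 to 1.26) against IL-6, or 2.27-fold. The interval against vehicle included 2-fold. That against IL-6 did not, but this call was lost once a coefficient of variation of 0.2 between replicates was assumed. With IL-6, Hif1a was lower than with vehicle by a small amount, at -0.22 (-0.31 to -0.12). Gm15283, a long non-coding RNA gene on the opposite strand that overlaps Hif1a, had between 79 and 113 counts in the same libraries. Whether reads were counted by strand was not stated, but these counts are few beside those of Hif1a.

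Epas1 (ENSMUSG00000024140, chromosome 17, 87061128 to 87140838, plus strand) encodes the alpha subunit known for its high expression in endothelium. It had 3461 counts with vehicle, 3715 with IL-6 and 2092 with OSM, corresponding to 24.5, 24.5 and 12.5 FPKM. The vehicle and IL-6 libraries did not differ beyond counting error, at a log2 fold change of 0.00 (-0.06 to 0.07), whereas the OSM library was lower than vehicle by -0.97 (-1.05 to -0.89), an interval that included 2-fold. Within each library, Hif1a expression per length was 0.513 times that of Epas1 with vehicle (0.484 to 0.542), 0.440 times with IL-6 (0.416 to 0.466) and 1.96 times with OSM (1.86 to 2.06). The ratio thus differed 3.82-fold (3.54 to 4.12) between OSM and vehicle, and this value does not depend on how the libraries are scaled. Of the 10 endothelial markers 0 were called between OSM and vehicle, near the 9.17% of all genes called, and their median log2 fold change was 0.15. Intervals excluded no change for 2 of the markers, both higher with OSM, against 66.4% of all genes in either direction. In bulk RNA, fewer cells of a type and less RNA per cell cannot be told apart.

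Arnt, the shared partner of both alpha subunits, had 1480, 1357 and 1142 counts with vehicle, IL-6 and OSM, and a log2 fold change of -0.62 (-0.73 to -0.50) between OSM and vehicle. Hif3a and Arnt2 had between 0 and 4 counts in each library and were not compared.

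**Figure D2:**
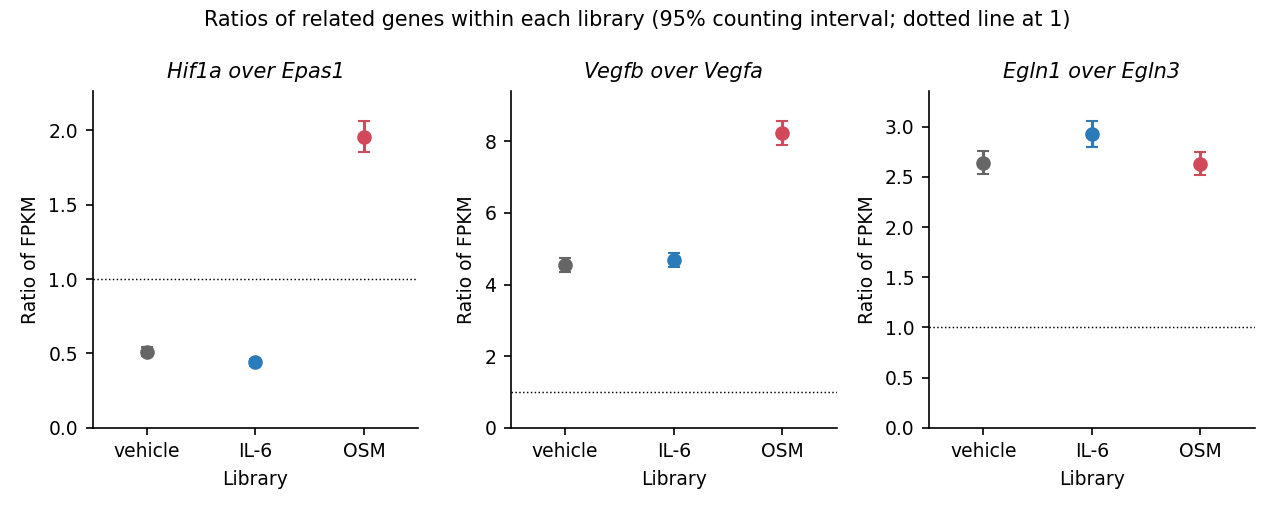
FPKM of Hif1a over Epas1, of Vegfb over Vegfa and of Egln1 over Egln3 within each library, with 95% counting intervals. The ratio of Hif1a to Epas1 crossed 1 with OSM only, the ratio of Vegfb to Vegfa was highest with OSM, and the ratio of Egln1 to Egln3 stayed between 2.63 and 2.92.

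The sequence before the Hif1a start site is shown because it holds the HIF core itself, as windows of other members also do. RefSeq promoter windows of 250 bases before to 50 bases after the start site were searched on both strands for the core as ACGTG and GCGTG, and for the STAT motif TTCNNNGAA. The table of windows follows the GRCm38.p6 assembly, and each window of a member matched GRCm39 once, whose coordinates are given. Of the 10 members, 8 had 1 or more windows, 10 windows in all, and Ndrg1 and Epas1 had no entry. Hif1a held 3 matches to ACGTG, of which 2 overlap in the palindrome CACGTG. Such a match is a description of letters and not of binding. The 250 bases before the start site lie at chr12:73954391-73954640 on the plus strand, within the annotated span of the gene, with the matches in capitals.
Hif1a: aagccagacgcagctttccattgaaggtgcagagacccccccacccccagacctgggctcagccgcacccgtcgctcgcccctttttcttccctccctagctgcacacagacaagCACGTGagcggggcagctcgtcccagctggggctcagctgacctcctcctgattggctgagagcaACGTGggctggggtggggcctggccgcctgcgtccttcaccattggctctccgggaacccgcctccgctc

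Among all 32851 promoter windows in the table, 19.6% held ACGTG, 32.4% GCGTG and 43.8% at least 1 of them. Of the members with windows, Vegfa, Vegfb, Pgf, Hif1a, Egln1, Egln3 and Ankrd37 held at least 1 of them, and Vegfc held neither. The background is a share of windows, whereas members are listed by gene, and Vegfa and Pgf each had another window that held neither. Hif1a and Vegfb were higher with OSM than with vehicle beyond counting error, and Vegfa, Egln1 and Egln3 were lower. TTCNNNGAA was present in 8.30% of all windows and in 0 of the members' 10 windows, which says only that these letters are not in those windows.

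Ndrg1 (ENSMUSG00000005125, chromosome 15, 66801167 to 66841489, minus strand) encodes a cytoplasmic protein induced by hypoxia, differentiation and cell stress. It had 242 counts with vehicle, 292 with IL-6 and 2692 with OSM, corresponding to 1.45 (1.27 to 1.65), 1.63 (1.45 to 1.83) and 13.7 (13.2 to 14.2) FPKM. The intervals of vehicle and IL-6 overlapped, and the OSM library stood apart from both. The log2 fold change was 3.23 (3.04 to 3.43) against vehicle and 3.06 (2.89 to 3.24) against IL-6, compared with 0.17 (-0.08 to 0.42) for IL-6 against vehicle. Among 21970 protein-coding genes ranked by FPKM, Ndrg1 moved from position 8520 with vehicle to position 2891 with OSM. The call was made under every one of the 13 alternative settings tried, including an assumed coefficient of variation of 0.4 between replicates.

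Of the 3 other genes of the NDRG family, 0 were called between OSM and vehicle, near the 9.17% of all genes called. Ndrg2, the most abundant of these 3 in these cells, had 36569, 39528 and 50114 counts with vehicle, IL-6 and OSM. Its log2 fold change was 0.21 between OSM and vehicle. Ndrg3 was at -0.56 and Ndrg4 at -0.21. The 3 genes whose log2 changes across the 3 libraries lay nearest to those of Ndrg1, among 9003 candidates, were Gm13889, with 944, 1135 and 10250 counts, Litaf, with 147, 160 and 1832 counts, and Cnksr1, with 191, 211 and 1813 counts. Each was high in the OSM library alone, which follows from how they were picked.

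**Figure D3:**
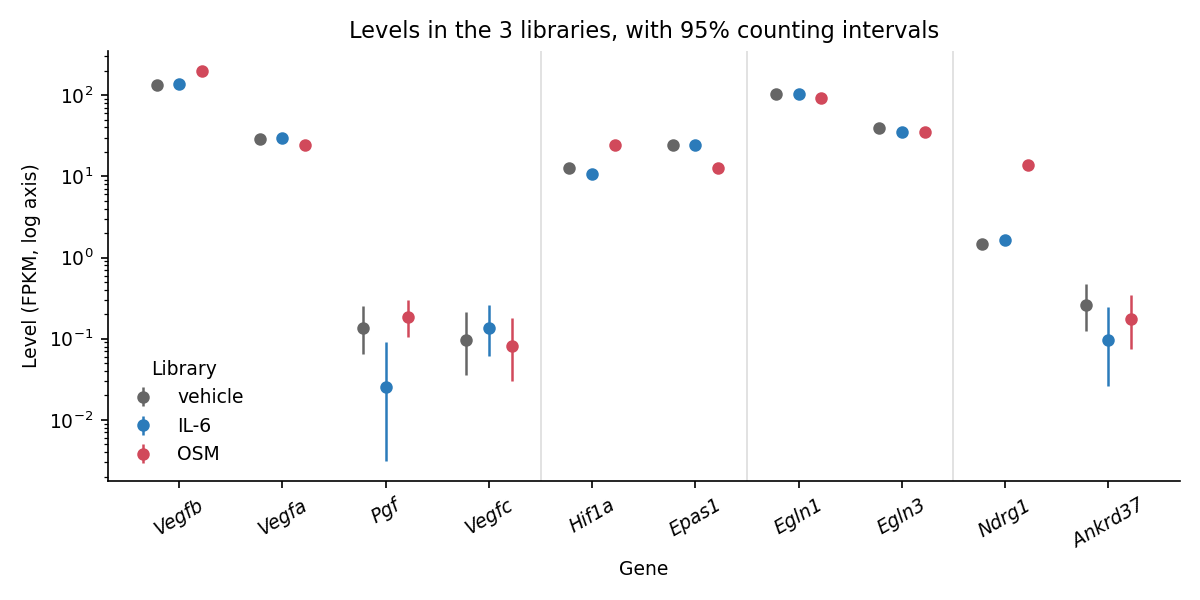
FPKM of the 10 members in the vehicle, IL-6 and OSM libraries on a log axis, with 95% counting intervals. The members spread from Vegfb, at 132 to 198 FPKM, down to Vegfc, Pgf and Ankrd37, at or below 0.257 FPKM.

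Vegfb was the most highly expressed member in every library, and the VEGF family ligands were dominated by Vegfb and Vegfa. Vegfb (ENSMUSG00000024962, chromosome 19, 6959841 to 6965019, minus strand) encodes a ligand of FLT1 that is abundant in heart and has been linked to fatty acid uptake. It had 5350 counts with vehicle, 6035 with IL-6 and 9506 with OSM, corresponding to 132, 139 and 198 FPKM. The OSM library was higher than the vehicle library, at a log2 fold change of 0.59 (0.54 to 0.64), and IL-6 differed from vehicle by 0.07 (0.02 to 0.13). Short genes as a group were higher with OSM, however, and of the 1000 protein-coding genes closest in length to Vegfb, with a median log2 fold change of 0.42, 29.9% exceeded it. After centring on genes of similar length the value was 0.17. The part of gene length in this difference was not tested.

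Vegfa (ENSMUSG00000023951, chromosome 17, 46327919 to 46343295, minus strand) encodes the principal angiogenic ligand and is a classical HIF target. It had 3152 counts with vehicle, 3446 with IL-6 and 3089 with OSM, corresponding to 29.1, 29.7 and 24.1 FPKM. The log2 fold change was -0.27 (-0.34 to -0.20) for OSM and 0.03 (-0.04 to 0.10) for IL-6 against vehicle. The paper reported no induction of Vegfa by OSM in its RNAseq. By qPCR with replicates, in ACMs from control and Jak1-deleted hearts, it reported Vegfa levels unchanged with OSM. Of the summed FPKM of Vegfa, Vegfb, Vegfc and Pgf, Vegfb made up 81.8% with vehicle, 82.3% with IL-6 and 89.0% with OSM, and Vegfa 18.1%, 17.6% and 10.8%. Vegfb exceeded Vegfa 4.53-fold with vehicle, 4.68-fold with IL-6 and 8.22-fold with OSM, and the ratio differed 1.81-fold (1.71 to 1.92) between OSM and vehicle.

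The bases before the Vegfb start site are given for comparison with Hif1a, since this ligand had the higher value with OSM. The Vegfb window held 2 matches to GCGTG, 1 on each strand, and none to ACGTG. Of the 2 windows of Vegfa, 1 lay within the gene and held 1 match to each form of the core, and the other held neither. The 250 bases lie at chr19:6965020-6965269 on the minus strand, just before the annotated gene, and are written in the direction of transcription with the matches in capitals.
Vegfb: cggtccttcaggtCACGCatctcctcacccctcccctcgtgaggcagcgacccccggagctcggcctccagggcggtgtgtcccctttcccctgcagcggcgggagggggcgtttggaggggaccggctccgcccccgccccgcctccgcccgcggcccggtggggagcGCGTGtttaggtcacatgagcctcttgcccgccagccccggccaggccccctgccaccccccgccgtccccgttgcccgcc

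Vegfc, a lymphangiogenic ligand (chromosome 8, 54530641 to 54640131, plus strand), was barely detected, with 6, 9 and 6 counts with vehicle, IL-6 and OSM. Pgf, placental growth factor (chromosome 12, 85213409 to 85224564, minus strand), had 10, 2 and 16 counts. Its interval for IL-6 against vehicle, -5.65 to -0.19 around a log2 fold change of -2.42, excluded no change but rested on 2 counts with IL-6. On the same 2 counts, the OSM library was higher than the IL-6 library by 2.86 (0.77 to 6.02), an interval that included 2-fold. Pgf was called in this pair when the libraries were thinned to the smallest total, at 3.78 (1.05 to 9.19), and when the point estimate or the FPKM alone was read. The remaining family ligand Vegfd had 13, 28 and 17 counts. By the whole interval at full depth, 0 of the 5 VEGF ligands were called in any of the 3 comparisons. Of all genes, 9.17% were called in either direction between OSM and vehicle, 3.51% between IL-6 and vehicle and 9.66% between OSM and IL-6. For 5 genes, 0 calls do not stand apart from these shares.

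The VEGF receptors, which are characteristic of endothelial cells, were low. Flt1 had 63, 75 and 79 counts with vehicle, IL-6 and OSM, Kdr had 160, 221 and 205, and Flt4 had 30, 40 and 13. The co-receptor Nrp1 was higher, with 765, 837 and 957 counts, and did not differ between OSM and vehicle beyond counting error, at a log2 fold change of 0.08 (-0.06 to 0.22). Nrp2, another co-receptor, had 46 counts with vehicle, 148 with IL-6 and 119 with OSM. It was the 1 receptor of 5 called, higher with IL-6 than with vehicle at 1.59 (1.10 to 2.10), where 1.77% of all genes were called higher, and the call was lost with an assumed coefficient of variation of 0.2. For OSM against vehicle it was 1.13 (0.63 to 1.65) and was not called.

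The prolyl hydroxylases were abundant and, by scaled counts alone, differed little. Egln1 (ENSMUSG00000031987, chromosome 8, 125635326 to 125676063, minus strand), the main oxygen sensor of the family, had 9323 counts with vehicle, 9985 with IL-6 and 10010 with OSM, corresponding to 103, 103 and 93.3 FPKM. Its log2 fold change was -0.14 (-0.18 to -0.10) for OSM and 0.00 (-0.04 to 0.04) for IL-6 against vehicle. Egln3 (ENSMUSG00000035105, chromosome 12, 54225767 to 54250646, minus strand), itself inducible by HIF, had 2617, 2530 and 2819 counts and differed from vehicle by -0.13 (-0.21 to -0.06) with OSM and -0.15 (-0.23 to -0.07) with IL-6. The ratio of Egln1 to Egln3 was 2.64 with vehicle and 2.63 with OSM, a 0.997-fold difference (0.938 to 1.06). Between OSM and vehicle, 75.9% of the genes closest in length exceeded Egln1 and 82.2% exceeded Egln3, with medians of 0.14 and 0.25. After centring on genes of similar length the values were -0.28 and -0.39. Egln3 between OSM and IL-6 was at 0.01, and at -0.24 after centring. The part of gene length in these differences was not tested.

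Of the 10 genes of HIF turnover and control, 0 were called between OSM and vehicle, and 5 were higher and 5 lower beyond counting error, with a median of 0.06, against 9.17% of all genes called and 33.4% higher and 33.1% lower beyond counting error. Egln2, the remaining prolyl hydroxylase, was at 0.43 (0.34 to 0.52), with 1756 counts with vehicle and 2797 with OSM. Elob, a subunit of the VHL ubiquitin ligase complex, was at 0.88 (0.81 to 0.95). Hif1an, the asparaginyl hydroxylase that blocks HIF coactivator binding, was at -0.42 (-0.49 to -0.35). Elob is 1398 bases long, and in the length bin of median 1231 bases the median was 0.53 and the upper quartile 0.75. Egln2 and Hif1an lay within the quartiles of genes of their length. The part of gene length in these differences was not tested.

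Ankrd37 (chromosome 8, 46449939 to 46458744, minus strand), an ankyrin repeat gene induced by HIF, had 10, 4 and 8 counts with vehicle, IL-6 and OSM, at most 0.257 FPKM. Its log2 fold change between OSM and vehicle was -0.56 (-2.11 to 0.93). The interval included no change and a fall beyond 2-fold, and did not include a rise of 2-fold. Ufsp2 and Lrp2bp overlap Ankrd37 on the opposite strand. Ufsp2 had between 829 and 950 counts, and Lrp2bp had 75, 74 and 20 with vehicle, IL-6 and OSM. Few reads misassigned to or away from Ankrd37 would change its value. Ankrd37 is shown because its window held both forms of the core, 2 matches to ACGTG and 2 overlapping matches to GCGTG, beside counts near the floor. The 250 bases lie at chr8:46452888-46453137 on the minus strand, within the annotated span of the gene.
Ankrd37: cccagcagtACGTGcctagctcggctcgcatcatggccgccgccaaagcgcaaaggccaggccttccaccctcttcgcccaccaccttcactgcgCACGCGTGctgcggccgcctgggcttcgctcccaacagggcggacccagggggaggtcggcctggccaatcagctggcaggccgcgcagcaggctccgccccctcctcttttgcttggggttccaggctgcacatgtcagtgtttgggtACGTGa

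Ordered by FPKM, the members ran Vegfb, Egln1, Egln3, Vegfa, Epas1, Hif1a and Ndrg1 in both the vehicle and the IL-6 library, followed by the 3 genes near the floor. With OSM the order was Vegfb, Egln1, Egln3, Hif1a, Vegfa, Ndrg1 and Epas1. Neighbors in these orders differed beyond their counting intervals, except Hif1a and Vegfa with OSM, whose ratio of Vegfa to Hif1a was 0.985 (0.940 to 1.03), and Ankrd37, Pgf and Vegfc, whose order was not resolved in any library.

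A list of 45 established HIF targets, 5 of them members, places these values among other genes of the pathway. This list, like the others here, was chosen with earlier results of these data known. Its shares beside the background are therefore a description and not independent support. Of the 42 compared between OSM and vehicle, 6 were called higher and 0 lower, or 14.3% against the background of 3.74%, with a median of 0.18. Without the members, 5 of 37 were called and the median was 0.29. Beside Ndrg1, the called genes were Angptl4, an inhibitor of lipoprotein lipase, at 3.56, the glycolytic activator Pfkfb3 at 1.75 (1.47 to 2.03), the transcriptional repressor Bhlhe40 at 1.52 (1.45 to 1.58), the glucose transporter gene Slc2a1 at 1.47 (1.40 to 1.53) and the lipid droplet coat gene Plin2 at 1.22 (1.16 to 1.27). Angptl4 had 411, 320 and 5741 counts with vehicle, IL-6 and OSM, and Slc2a1 had 2487, 2709 and 8125. With an assumed coefficient of variation of 0.2, 2 calls were left, Angptl4 and Ndrg1.

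The targets differed in both directions: 21 of 42 were higher and 13 lower beyond counting error, against 33.4% of all genes higher and 33.1% lower. Vegfa, Egln1 and Egln3 were among the lower ones. These shares and the medians of the list were set against all genes and not genes of similar length, and short genes were higher with OSM. After centring on genes of similar length, 7 targets were called higher and 0 lower. The part of gene length in the shares and medians was not tested. Stc2, a secreted glycoprotein, was the lowest at -1.14 (-1.32 to -0.95), with 710, 783 and 382 counts. For IL-6 against vehicle 0 targets were called higher and 1 lower, against 1.77% and 1.74% of all genes, and the median was -0.01. The 1 called lower was Car9, which had 10 counts with vehicle and 0 with IL-6. For OSM against IL-6, 10 were called higher (23.8%) and 0 lower, against 4.24% and 5.42% of all genes. With an assumed coefficient of variation of 0.2 the 10 calls became 3 (Angptl4, Car9 and Ndrg1), and with 0.4 they became 2 (Angptl4 and Ndrg1). Car9 had 15 counts with OSM and 0 with IL-6, so its fold is a bound. Its call was absent when at least 50 counts over the pair were required. Gapdh was among those 10, with 147, 105 and 357 counts, but its many near-identical pseudogenes make its counts uncertain.

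**Figure D4:**
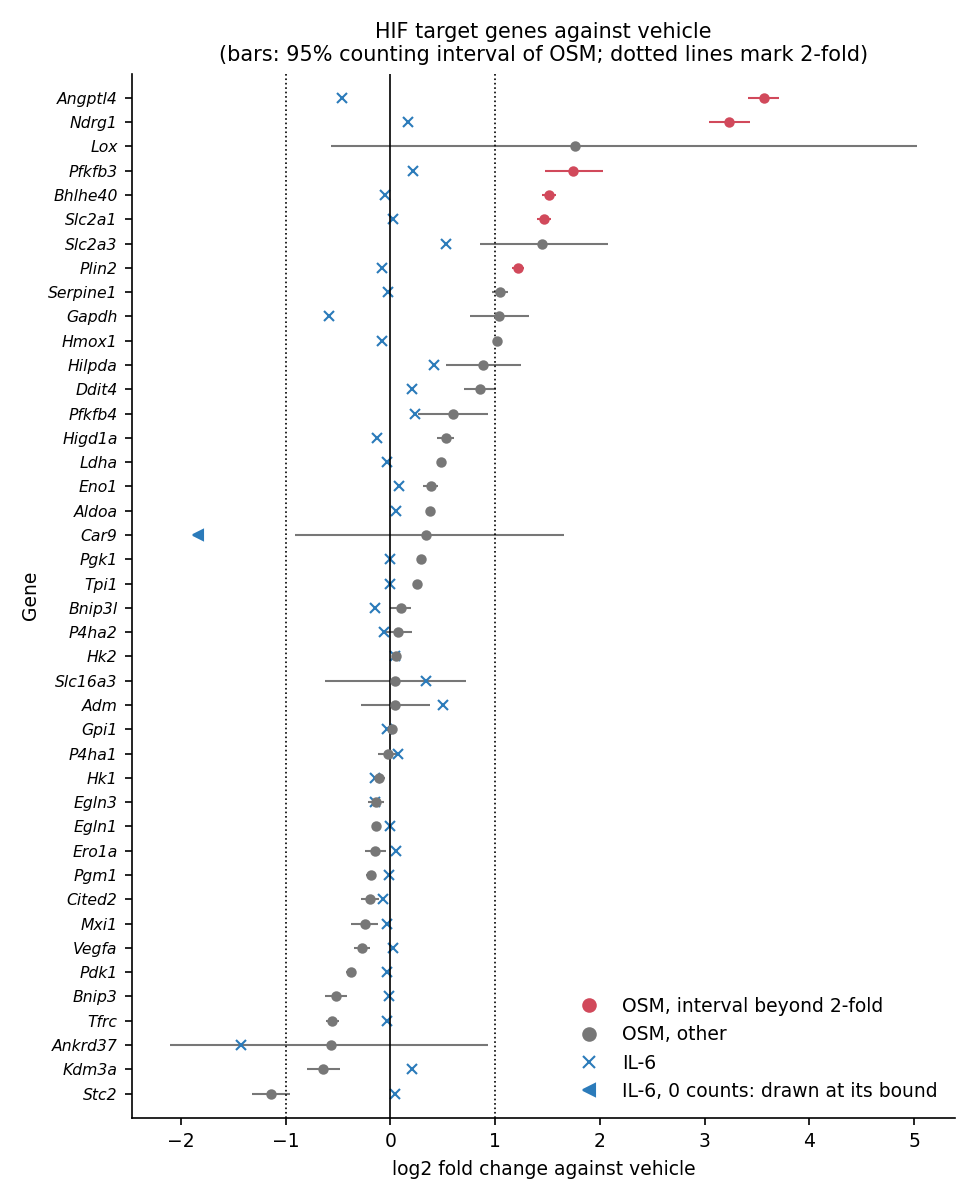
Log2 fold change against vehicle of the 42 HIF targets compared, as points with 95% counting intervals for OSM and as crosses for IL-6 (a triangle at its bound for Car9, which had 0 counts), with dotted lines at 2-fold. The 6 called genes, in red, include Ndrg1, whereas Vegfa, Egln1, Egln3 and Ankrd37 are below 0 with OSM.

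Of 9 angiogenic ligands outside the VEGF family that could be compared between OSM and vehicle, 2 were called higher and 1 lower, against 3.74% and 5.43% of all genes. Angptl4 is one of the former and also stands in the list of HIF targets. Pdgfa, a growth factor for mesenchymal cells, had 760, 975 and 2477 counts with vehicle, IL-6 and OSM and a log2 fold change of 1.46 (1.35 to 1.58), a call that was lost with an assumed coefficient of variation of 0.2. Angpt1, a ligand of the endothelial receptor TEK that stabilizes vessels, had 312, 319 and 95 counts and a log2 fold change of -1.96 (-2.30 to -1.62), a call that was lost with a coefficient of 0.4.

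Gene length moved with the fold changes between OSM and vehicle, with a Spearman correlation of -0.52 across 9445 protein-coding genes, which are not independent replicates. Ndrg1, with a length of 6596 bases, lay far from this trend, and 0.3% of the 1000 genes closest in length exceeded it. Hif1a and Epas1 have similar lengths, 5896 and 5590 bases, and similar medians of their neighbors in length, -0.09 and -0.10. Hif1a was exceeded by 3.1% of its neighbors, and 5.3% of those of Epas1 were lower than it. Vegfa lay below 77.1% of its neighbors.

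**Figure D5:**
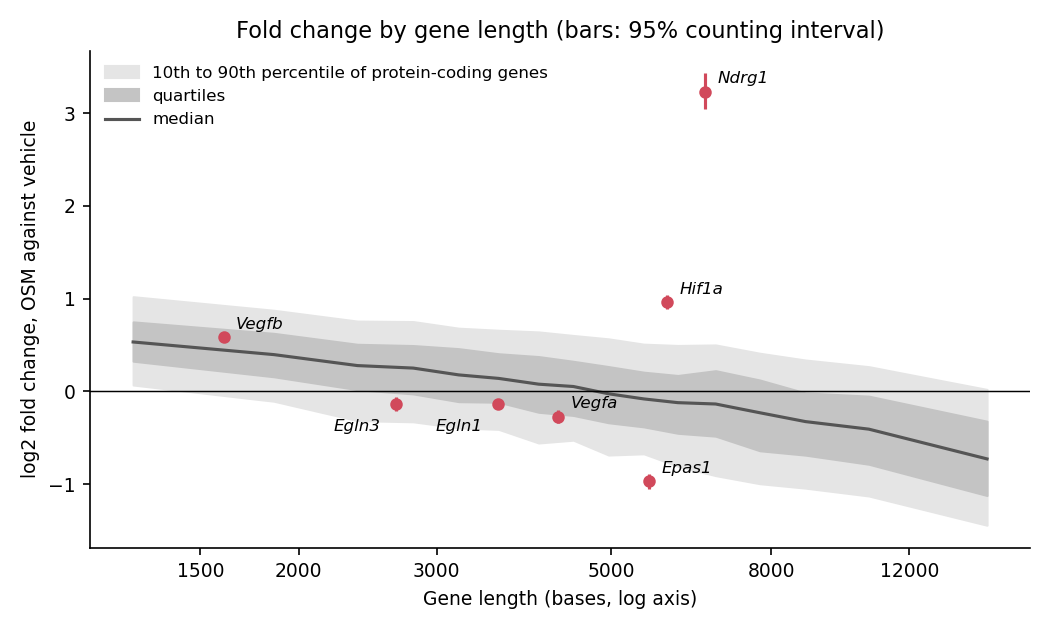
Log2 fold change between OSM and vehicle against gene length on a log axis, with the median, quartiles and 10th to 90th percentiles of protein-coding genes in bins of length and the 7 well-counted members as points with 95% counting intervals. Ndrg1 and Hif1a lie above the shaded range, Epas1 lies below it, and Vegfb lies within the quartiles of genes of its length.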

How the data were processed

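RNAseq was available for 3 libraries of ACMs, 1 each for vehicle, IL-6 and OSM. The authors deposited whole-number counts per gene and FPKM for the same genes, without pooling beyond that of the RNA itself. The submitters' processing notes name fastp, HISAT2 2.2.1, featureCounts 2.0.6, edgeR 4.0.16 and the build mm39, and the methods of the study name other versions of featureCounts and edgeR. Whether counting used the strand was not stated. All per-sample columns were matched to a library (0 left out).

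Each pair of libraries was scaled by TMM on all genes (edgeR 4.0.16, R 4.3.3). A gene entered a comparison when its counts in both libraries together reached 10, and log2 ratios of scaled counts were given with Clopper-Pearson intervals, which cover counting error only. For the change of a ratio of genes between libraries, the interval was a normal approximation on the log scale. A fold against 0 counts is a bound against 3 counts per library. The calling rule was run on simulated counts with planted changes well beyond 2-fold. That simulation does not bear on changes near 2-fold or on the unknown spread between replicates here. All 10 members are named. Of each list, the called genes with the largest folds are named, every gene of short lists, and the 3 genes nearest in pattern to a called member. Stc2, Egln2, Elob, Hif1an and Gapdh were named after their values were seen. The members, lists and alternatives were chosen with earlier results of these data known. Promoter sequences are from RefSeq (GRCm38.p6). Alternatives were DESeq2 1.42.0 size factors, other scalings, FPKM, thinning, thresholds and filters. For FPKM, 0.1 was added to each value and genes were called by the point estimate beyond 2-fold, without an interval.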

Additional observations from a re-analysis of the deposited data

How the results depend on the processing

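Of 180 log2 fold changes of members recomputed under 6 other scalings, 0 reversed a called direction, 162 moved by less than their counting interval and 18 moved by more, among them Vegfb. The sign changed for Egln3 between OSM and IL-6 under 2 of them, for Egln1 and Epas1 between IL-6 and vehicle under 3 and 1, and for Vegfc between OSM and vehicle under 1. The number of members called between OSM and vehicle, 1, became 3 beyond 1.5-fold and 7 beyond no change. Between IL-6 and vehicle, 0 became 2 (Ankrd37 and Pgf) by the point estimate and 4 beyond no change. Between OSM and IL-6, 2 became 3 (Pgf added) with FPKM, thinning or the point estimate, 4 beyond 1.5-fold (Pgf and Epas1 added), 7 beyond no change, and 1 with an assumed coefficient of variation of 0.2 or 0.4, where the Hif1a call was lost. HIF targets called higher between OSM and vehicle, 6, became 11 by the point estimate and beyond 1.5-fold, 21 beyond no change and 2 with either coefficient. Those called lower, 0, became 1 (Stc2) with total counts, FPKM, the point estimate or 1.5-fold, and 13 beyond no change. Over all genes between OSM and vehicle, 581 higher and 844 lower became 1565 and 2034 by the point estimate, 1088 and 1324 with FPKM, 1357 and 1850 beyond 1.5-fold, 5186 and 5137 beyond no change, 382 and 502 with at least 50 counts, 296 and 383 with a coefficient of 0.2 and 104 and 135 with 0.4. Over the same settings, 274 and 269 between IL-6 and vehicle ranged from 31 and 25 to 3028 and 2953, and 659 and 843 between OSM and IL-6 from 135 and 127 to 5160 and 5156. The FPKM setting was called by the point estimate without an interval, so the calls made with it do not isolate the change of measure. Depth limits Vegfc, Pgf and Ankrd37, with at most 16 counts per library. Why these counts moved follows from the thresholds themselves. Otherwise the cause was not tested. No paired analysis was possible because each condition has 1 library, and for the same reason no replicate could be left out.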
